A study of Mus musculus with 16 samples.

Results

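The 10 genes described here carry or restrain the insulin signal inside cells: the receptors Insr, Igf1r and Igf2r, the adaptors Irs1 and Irs2, the PI3-kinase subunit Pik3r1, the kinase Akt2, the mTOR inhibitor Ddit4 and the transcription factors Foxo1 and Foxo3. A probe set was taken where the platform annotation gave one of these symbols and no other, and probe sets of a gene were averaged, which found all 10 members among the 22180 genes measured. Irs1 and Foxo1 had 2 probe sets each and the other members 1. Myocardial RNA of 16 mice on the C57Bl/6J background was read on 1 Affymetrix array per mouse. Both genotypes, wild type (WT) and mice homozygous for the Clock delta 19 allele, which the labels call transgenic and which are named Clock below, were fed standard chow (SC) or a high-fat diet (HFD), with 4 mice in each of the 4 groups that the labels call biological replicates. All mice were 32 weeks old, had eaten their diet for 24 weeks, and were sampled 7 hours after lights on. The allele is a germline mutation, so the heart's own clock cannot be told apart here from that of the rest of the animal.

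Insulin and the insulin-like growth factors bind receptor kinases at the cell surface, which phosphorylate the adaptors IRS1 and IRS2. The adaptors dock the PI3-kinase through its regulatory subunit, the lipid that the kinase makes recruits AKT, and AKT drives glucose uptake, activates the growth kinase complex mTORC1 and keeps FOXO factors out of the nucleus. Feedback runs the other way: active mTORC1 weakens the adaptors, while FOXO factors are known in mouse liver to raise the Irs2 transcript. In heart muscle the pathway sets glucose use and cell size. CLOCK and its partner BMAL1 activate genes through the E-box letters CACGTG, and the delta 19 protein does so poorly.

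Because the genotype altered an E-box activator, the promoters of the members were searched for these letters. RefSeq (build GRCm38.p6) listed 13 start sites for 9 of the members, with none listed for Insr. CACGTG, a palindrome that reads the same on both strands, was found in the 250 bases before the start of Igf2r, Irs1 and Irs2, which is 3 of 13 windows, against 6.02% of 32851 windows of that length over all genes. The windows of Igf2r, Irs1 and Irs2 were rich in G and C, at 69.2%, 72.4% and 72.8% against a median of 52.4% over all windows, and the share over all windows was not adjusted for this. Stretches of 60 bases on the minus strand are shown for these genes and for Ddit4, the member that differed most between genotypes, with the motif in capitals.
Igf2r, chr17:12769707-12769766: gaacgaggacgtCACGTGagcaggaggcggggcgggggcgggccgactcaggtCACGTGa
Irs1, chr1:82291520-82291579: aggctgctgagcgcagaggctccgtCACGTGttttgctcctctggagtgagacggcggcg
Irs2, chr8:11008944-11009003: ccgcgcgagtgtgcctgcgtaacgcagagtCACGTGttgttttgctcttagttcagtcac
Ddit4, chr10:59951928-59951987: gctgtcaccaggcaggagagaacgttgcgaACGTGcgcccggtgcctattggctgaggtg
The copies in Igf2r begin 48 and 7 bases before the start, that in Irs1 115 bases and that in Irs2 44 bases before it. The capitals in Ddit4 mark ACGTG, the core letters of the hypoxia response element, 187 bases before the start. That core lies inside every CACGTG and was found in windows of Igf2r, Irs1, Irs2, Akt2 and Ddit4, which is 5 of 13, against 16.6% of all windows on either strand. AGGTCA, the letters bound by REV-ERB and ROR factors, was found in Igf1r and Igf2r (14.0% of all windows) and the ATF4 composite TGATGNAA in Akt2 (3.45%). The FOXO letters GTAAACA (3.17% of all windows), the glucocorticoid receptor half-site AGAACA (16.1%) and the D-box TTANGTAA (2.06%) were found in no member window. All letters were searched on both strands, and a match describes the sequence and nothing more.

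The deposited values are log2 differences of each probe set from its own median over the 16 arrays, so that hearts can be compared for a gene but no level of a transcript is known and genes cannot be ranked by abundance. For the same reason the myocardial origin could not be checked from the level of cardiomyocyte markers. Array medians lay between -0.00154 and 0.00281, and the SD of an array over its probe sets between 0.111 and 0.159, widest in WT SC replicate 2. Clock SC replicate 4 was the array least like its own group, with a mean correlation of 0.00508 over genes. Differences were tested with limma over all 22180 genes with Benjamini-Hochberg adjustment, and a gene is said to have risen or fallen where its adjusted p was under 0.05. Errors after ± are standard errors from that fit, with 4 arrays a group, unless called SD. Among 15 clock genes measured, 5 fell in Clock hearts on chow and none rose, against 0.491% of all genes called. On HFD 10 fell and 3 rose, against 1.9% of all genes called. The 5 on chow were 3 without WT SC replicate 2 and 8 without WT SC replicate 4. Dbp, a direct target of CLOCK and BMAL1, fell by 2.05 ± 0.27 on chow (adjusted p = 0.00154) and fell by 2.73 ± 0.27 on HFD (adjusted p = 5.47e-05), both on the log2 scale, and with eBayes set to trend and robust neither passed (adjusted p = 0.9 and 0.767). WT SC replicate 4 stood apart in Dbp, at 0.37 against 1.71 to 2.29 in the other WT chow hearts. In the clock gene Ciart it lay at -0.17 against 0.94 to 1.53, and the cause was not tested.

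In Clock hearts on HFD, Ddit4 was 1.85-fold higher than in WT hearts on the same diet. It was the only member past the threshold in that comparison. Averaged over the diets, Ddit4, Igf2r, Irs1 and Akt2 were all higher in Clock hearts, Ddit4 under every setting tried and the other three by 1.13-fold to 1.14-fold with calls that single arrays could end. On HFD averaged over genotypes, Ddit4 and Pik3r1 were higher than on chow, and the Pik3r1 rise also passed within WT hearts.

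**Figure D1:**
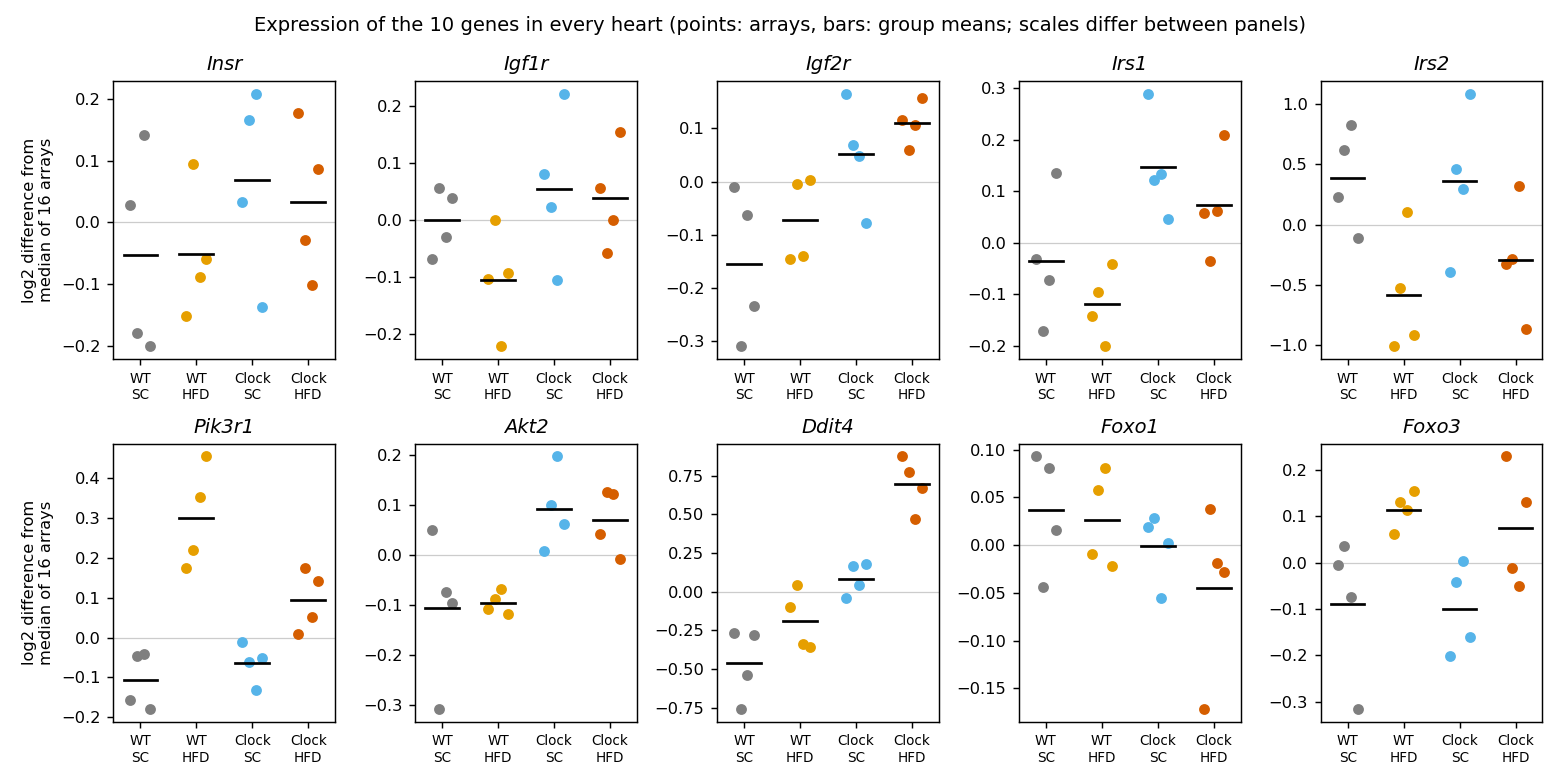
Each panel plots 1 gene, with the log2 difference from the gene's median over the 16 arrays on the vertical axis (scales differ between panels) and the 4 groups on the horizontal axis, points being arrays and bars group means. Ddit4 stands highest in the 4 Clock HFD hearts (0.47 to 0.88), and Pik3r1 is above 0 in all 8 HFD hearts and below 0 in all 8 chow hearts.

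**Figure D2:**
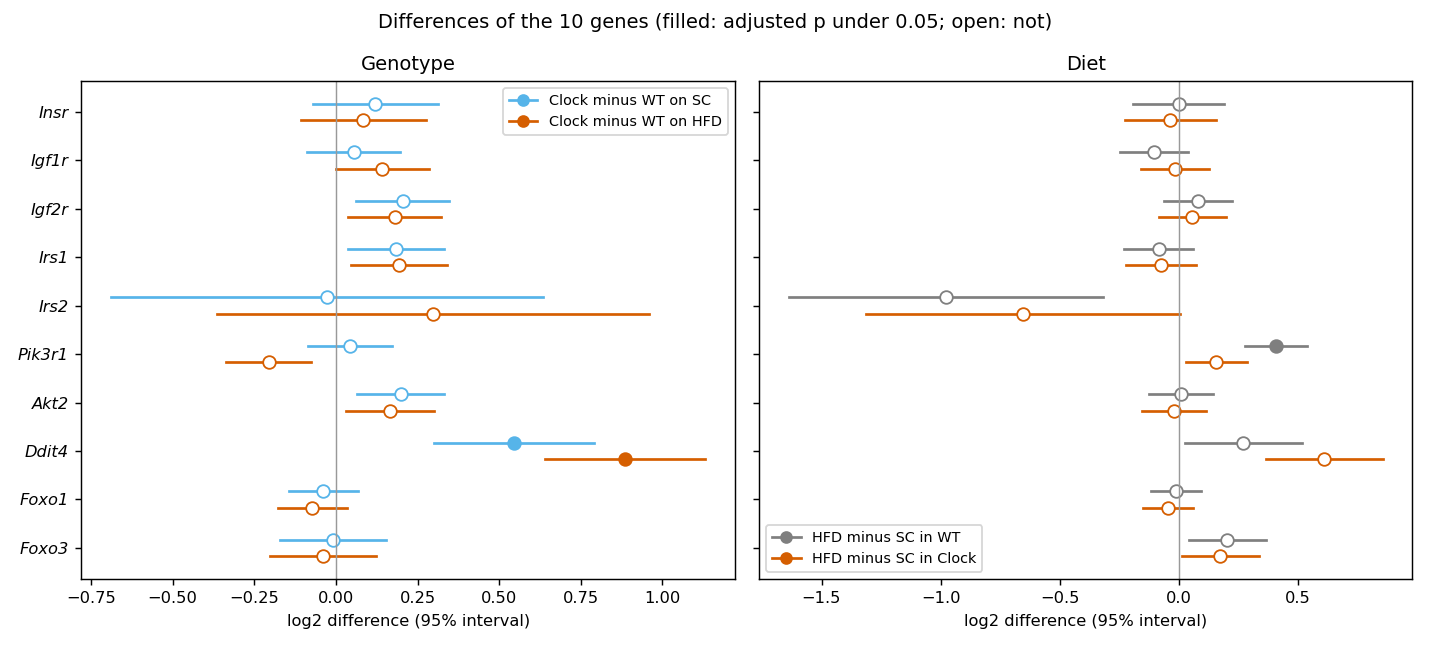
Log2 differences of the 10 genes with 95% intervals, genotype on the left (Clock minus WT on each diet) and diet on the right (HFD minus SC in each genotype), filled where the adjusted p was under 0.05. Ddit4 is filled in both genotype comparisons (0.55 and 0.89) and Pik3r1 in the diet comparison of WT hearts (0.41), while the intervals of Irs2 are the widest.

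Ddit4, also called REDD1, acts through the TSC complex to lower mTORC1 activity, and its transcript is known to be induced by low oxygen, glucocorticoids and energy or amino acid stress. In WT hearts its values were -0.27, -0.76, -0.54 and -0.28 on chow and -0.10, 0.04, -0.34 and -0.36 on HFD. In Clock hearts they were -0.04, 0.17, 0.04 and 0.18 on chow and 0.88, 0.77, 0.47 and 0.67 on HFD. All 4 Clock HFD hearts lay above the other 12 hearts, all 4 Clock chow hearts lay above all 4 WT chow hearts, and Clock chow hearts overlapped WT hearts on HFD. Of all genes, 4.95% had no overlap of the genotypes on chow and 8.89% had none on HFD. The share with 4 hearts apart from the other 12 was not computed. The group means, from lowest to highest, were those of WT SC (-0.46 ± 0.23, SD, n = 4), WT HFD (-0.19 ± 0.19), Clock SC (0.09 ± 0.10) and Clock HFD (0.70 ± 0.17).

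On HFD, the Clock hearts exceeded the WT hearts in Ddit4 by 0.89 ± 0.12 (95% interval 0.64 to 1.13, adjusted p = 0.000684), which placed it at rank 29 of all genes by p. It was the only 1 of the 10 members called there, against 1.9% of all genes called, 1.13% higher and 0.771% lower. On chow the difference was 0.55 ± 0.12 (1.46-fold, adjusted p = 0.0478), again the only call among the members, against 0.491% of all genes, 0.239% higher and 0.252% lower. The chow call was weak. Of the 16 fits that each left out 1 array, 6 kept it, those without Clock HFD replicate 1 or 3, WT HFD replicate 2 or 4, or WT SC replicate 1 or 4. Without any of the other 10 arrays the adjusted p was 0.0529 to 0.141, and a fit of the compared groups only gave 0.12. The direction was positive under all 25 other settings, with differences from 0.446 to 0.628. Averaged over diets Ddit4 was higher in Clock hearts by 0.72 ± 0.08 (1.64-fold, adjusted p = 8.61e-05), with 6 of 8 Clock hearts above the highest WT heart.

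Diet also moved Ddit4. Averaged over genotypes it was higher on HFD by 0.44 ± 0.08 (1.36-fold, adjusted p = 0.0127), with 4 of 8 HFD hearts above the highest chow heart. Within Clock hearts the diet difference was 0.61 ± 0.12 (95% interval 0.37 to 0.86), with no overlap between the groups, but its adjusted p of 0.059 missed the threshold. It passed when arrays were weighted (0.0233) or WT SC replicate 2 was left out (0.0374). Within WT hearts it was 0.27 ± 0.12 (adjusted p = 0.401) and the groups overlapped. The diet difference was 0.34 ± 0.16 larger in Clock than in WT hearts, with a 95% interval from -0.00 to 0.69 and an adjusted p of 0.982, so a dependence of the diet difference on genotype was not detected for Ddit4. The comparisons share groups: the Clock HFD hearts enter both the genotype and the diet differences.

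Pik3r1 encodes p85alpha, with p55alpha and p50alpha, the regulatory subunits that dock the PI3-kinase on the adaptors and restrain it when free of them. On chow its values were -0.16, -0.05, -0.04 and -0.18 in WT and -0.01, -0.06, -0.13 and -0.05 in Clock hearts. With HFD feeding they were 0.18, 0.22, 0.35 and 0.46 in WT hearts and 0.01, 0.18, 0.05 and 0.14 in Clock hearts. All 8 HFD hearts lay above all 8 chow hearts, a separation seen for 0.325% of all genes, and the WT hearts on HFD were the highest group with an overlap of Clock HFD replicate 2 and WT HFD replicate 1 at 0.18.

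Averaged over genotypes, Pik3r1 rose on HFD by 0.28 ± 0.04 (1.22-fold, adjusted p = 0.00364). With Ddit4 it was 1 of 2 members called in that comparison, both higher, against 1.54% of all genes called, 0.812% higher and 0.726% lower. The rise was called in all 24 other settings run for it, with an adjusted p of at most 0.0215. In WT hearts it was 0.41 ± 0.06 (1.33-fold, adjusted p = 0.0114), the only member called, against 0.352% of all genes, 0.185% higher and 0.167% lower. That call was lost in a fit of the WT arrays alone (0.0762) and without WT SC replicates 2 and 4 together (0.0978), and held without any single array. In Clock hearts the rise was 0.16 ± 0.06 (95% interval 0.03 to 0.29, adjusted p = 0.456). No member was called there, against 0.0902% of all genes (0.0496% higher, 0.0406% lower). An unadjusted p under 0.05 was seen for 3 members, against 8.42% of all genes. The groups did not overlap for Pik3r1 and Ddit4 in Clock hearts, against 5.31% of all genes, nor for Pik3r1 and Foxo3 in WT hearts, against 5.3%.

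The smaller difference in Clock hearts was tested as an interaction. The diet difference of Pik3r1 was -0.25 ± 0.09 in Clock relative to WT hearts (95% interval -0.43 to -0.07, unadjusted p = 0.011, adjusted p = 0.868). No gene of the array passed in the interaction after adjustment (0% of 22180), with 1122 genes (5.06%) at an unadjusted p under 0.05 and Pik3r1 the only such member. On HFD alone Pik3r1 was -0.21 ± 0.06 in Clock relative to WT hearts (adjusted p = 0.115), and on chow 0.04 ± 0.06 (adjusted p = 0.9).

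Akt2, the AKT isoform tied most closely to insulin-driven glucose uptake, was higher in Clock hearts. Its values in WT hearts were 0.05, -0.31, -0.07 and -0.10 on chow and -0.11, -0.09, -0.07 and -0.12 on HFD. In Clock hearts they were 0.01, 0.10, 0.20 and 0.06 on chow and 0.04, 0.13, 0.12 and -0.01 on HFD. WT SC replicate 2 stood lowest, and 5 of 8 Clock hearts lay above the highest WT heart, WT SC replicate 1. The average genotype difference was 0.18 ± 0.04 (1.13-fold, adjusted p = 0.031), made of 0.20 ± 0.06 on chow (adjusted p = 0.239) and 0.17 ± 0.06 on HFD (adjusted p = 0.243). With Ddit4, Igf2r and Irs1 it was 1 of 4 members called in the average, all 4 higher, against 3.88% of all genes called, 2.44% higher and 1.44% lower. Without Clock HFD replicate 3, Clock SC replicate 2 or 3, or WT HFD replicate 1, only 1 of the 4 was left, and without WT SC replicates 2 and 4 together 2 were. The call on Akt2 was kept in 9 of the 16 fits without 1 array. It was lost without Clock HFD replicate 2 or 3, Clock SC replicate 2 or 3, or WT HFD replicate 1, 2 or 4 (adjusted p 0.0516 to 0.068), and without WT SC replicates 2 and 4 together the difference was 0.134 (adjusted p = 0.109). Diet differences of Akt2 were small, with an average of -0.00 ± 0.04 (95% interval -0.10 to 0.09).

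Igf2r binds IGF2 and takes it to the lysosome, and it also sorts lysosomal enzymes; it has no kinase of its own. Its values in WT hearts were -0.01, -0.31, -0.06 and -0.23 on chow and -0.15, -0.0037, -0.14 and 0.0037 on HFD. In Clock hearts they were 0.16, 0.07, 0.05 and -0.08 on chow and 0.11, 0.06, 0.11 and 0.16 on HFD. Of 8 Clock hearts 7 lay above the highest WT heart, the exception being Clock SC replicate 4. The average genotype difference was 0.19 ± 0.05 (1.14-fold, adjusted p = 0.0299), with 0.21 ± 0.07 on chow (adjusted p = 0.251) and 0.18 ± 0.07 on HFD (adjusted p = 0.224). The call was kept in 6 of 16 fits without 1 array, those without Clock HFD replicate 2, Clock SC replicate 4, WT HFD replicate 2 or 4, or WT SC replicate 1 or 3. Without any other single array the adjusted p was 0.0537 to 0.0647, and without WT SC replicates 2 and 4 together the difference was 0.134 (adjusted p = 0.155).

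Irs1, the adaptor that links the insulin receptor to PI3-kinase, lay in WT hearts at -0.03, -0.17, -0.07 and 0.13 on chow and at -0.14, -0.10, -0.20 and -0.04 on HFD. The Clock hearts lay at 0.29, 0.12, 0.13 and 0.05 on chow and at 0.06, -0.04, 0.06 and 0.21 on HFD. All 8 Clock hearts lay above the WT median, and 2 of them above the highest WT heart, WT SC replicate 4. The average genotype difference was 0.19 ± 0.05 (1.14-fold, adjusted p = 0.0409), with 0.18 ± 0.07 on chow (adjusted p = 0.354) and 0.19 ± 0.07 on HFD (adjusted p = 0.205). The 2 probe sets of Irs1 did not move together. Their correlation over the 16 arrays was 0.197, and the average genotype difference was 0.04 in one and 0.34 in the other. The second, taken singly, was higher in Clock hearts on HFD by 0.396 ± 0.0756 (adjusted p = 0.0143) and in the average by 0.337 ± 0.0535 (adjusted p = 0.00223). The first differed by -0.01 on HFD and by 0.09 on chow. The call on the mean was kept in 4 of 16 fits without 1 array, those without Clock HFD replicate 2, Clock SC replicate 4, WT HFD replicate 4 or WT SC replicate 4, and the adjusted p was 0.0594 to 0.086 without any other array.

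On HFD the Clock and WT groups did not overlap for Ddit4, Igf2r, Irs1 and Akt2, 4 of 10 members against 8.89% of all genes. For Irs1 the gap was narrow, from -0.041 in the highest WT heart to -0.0356 in the lowest Clock heart. It was seen in the mean of the 2 probe sets. In the first probe set the groups overlapped, at -0.14 to 0.18 in WT and -0.04 to 0.14 in Clock hearts. On chow Ddit4 was the only member without overlap, against 4.95% of all genes. Averaged over the diets no member had all 8 hearts of one genotype above all 8 of the other, which 0.73% of all genes had. The median genotype difference over the 10 members was 0.09 on chow, 0.15 on HFD and 0.12 in the average, while the median over all genes rounded to 0 each time. The members were chosen with results of these data known, so these counts are a description.

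Irs2, the second main adaptor, had the widest spread of the 10 genes. Its values were 0.23, 0.62, 0.83 and -0.11 in WT hearts on chow and -1.01, -0.53, 0.11 and -0.92 on HFD. In Clock hearts they were -0.39, 0.46, 0.30 and 1.09 on chow and -0.33, -0.29, 0.32 and -0.87 on HFD. The groups overlapped in every comparison, and 4 of 8 HFD hearts lay below the lowest chow heart, Clock SC replicate 1. The SD within groups was 0.509, and 99.9% of genes had a smaller one. The average diet difference was -0.82 ± 0.22 (95% interval -1.28 to -0.35) with an adjusted p of 0.077, which missed the threshold. It passed without Clock SC replicate 1 (-0.942, adjusted p = 0.04) and without WT HFD replicate 3 (-0.932, adjusted p = 0.0438). Within WT hearts the difference was -0.98 ± 0.31 (adjusted p = 0.216) and within Clock hearts -0.65 ± 0.31 (adjusted p = 0.594). Genotype differences of Irs2 were -0.03 ± 0.31 on chow and 0.30 ± 0.31 on HFD (adjusted p = 0.99 and 0.764), with intervals of -0.69 to 0.63 and -0.36 to 0.96 that leave large changes either way undetected.

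Foxo3, which AKT phosphorylates and holds in the cytoplasm, lay in WT hearts at -0.0046, 0.04, -0.07 and -0.32 on chow and at 0.06, 0.13, 0.11 and 0.15 on HFD. The Clock hearts lay at -0.20, -0.04, 0.0046 and -0.16 on chow and at 0.23, -0.01, -0.05 and 0.13 on HFD. Of 8 HFD hearts 6 lay above the highest chow heart. The average diet difference was 0.19 ± 0.05 (1.14-fold, 95% interval 0.08 to 0.30, adjusted p = 0.0968), which missed the threshold, with 0.20 ± 0.08 in WT and 0.17 ± 0.08 in Clock hearts. Foxo1, its relative, taken as the mean of 2 probe sets, had the narrowest range of the members, from -0.17 to 0.09 over all hearts. Its differences were between -0.07 and -0.01 in every comparison of groups and none passed, with an average genotype difference of -0.05 ± 0.03 (95% interval -0.13 to 0.02, adjusted p = 0.483). Like those of Irs1, the 2 probe sets of Foxo1 were weakly correlated (r = 0.193 over 16 arrays). Between genotypes on HFD they differed by 0.02 and -0.16, and the second alone ranged from -0.24 to 0.22 over the hearts.

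Insr, the insulin receptor, ranged from -0.20 to 0.21 and Igf1r, the receptor of IGF1, from -0.22 to 0.22, with all groups overlapping. The average genotype difference was 0.10 ± 0.06 for Insr (95% interval -0.03 to 0.24, adjusted p = 0.471) and 0.10 ± 0.05 for Igf1r (95% interval -0.00 to 0.20, adjusted p = 0.312). The average diet difference was -0.02 ± 0.06 for Insr and -0.06 ± 0.05 for Igf1r (adjusted p = 0.795 and 0.677). For both receptors a genotype difference of the size called for Akt2 or Igf2r lies within the intervals.

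The members did not form 1 pattern over the hearts. Over the 16 arrays, with group differences included, Igf2r and Ddit4 had a Pearson correlation of 0.72, Igf2r and Akt2 of 0.70, and Pik3r1 and Foxo3 of 0.61. After each group's mean was subtracted these were 0.15, 0.38 and 0.06. Without the 2 arrays farthest from the median of the pair's first-named gene they turned to -0.31, -0.26 and -0.06. Arrays extreme in the other gene stayed in, and a narrowed range can by itself weaken a correlation. Within groups the highest of the 45 pairs was Insr with Igf2r (r = 0.68, Spearman 0.72) and the lowest Irs1 with Irs2 (r = -0.76, Spearman -0.74). Leaving out 2 arrays in the same way gave 0.57 for Insr with Igf2r and -0.65 for Irs1 with Irs2. Pik3r1 and Ddit4, both higher on HFD, had a within-group correlation of -0.59. These are descriptions over 16 arrays that share a scaling, and no p is given.

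**Figure D3:**
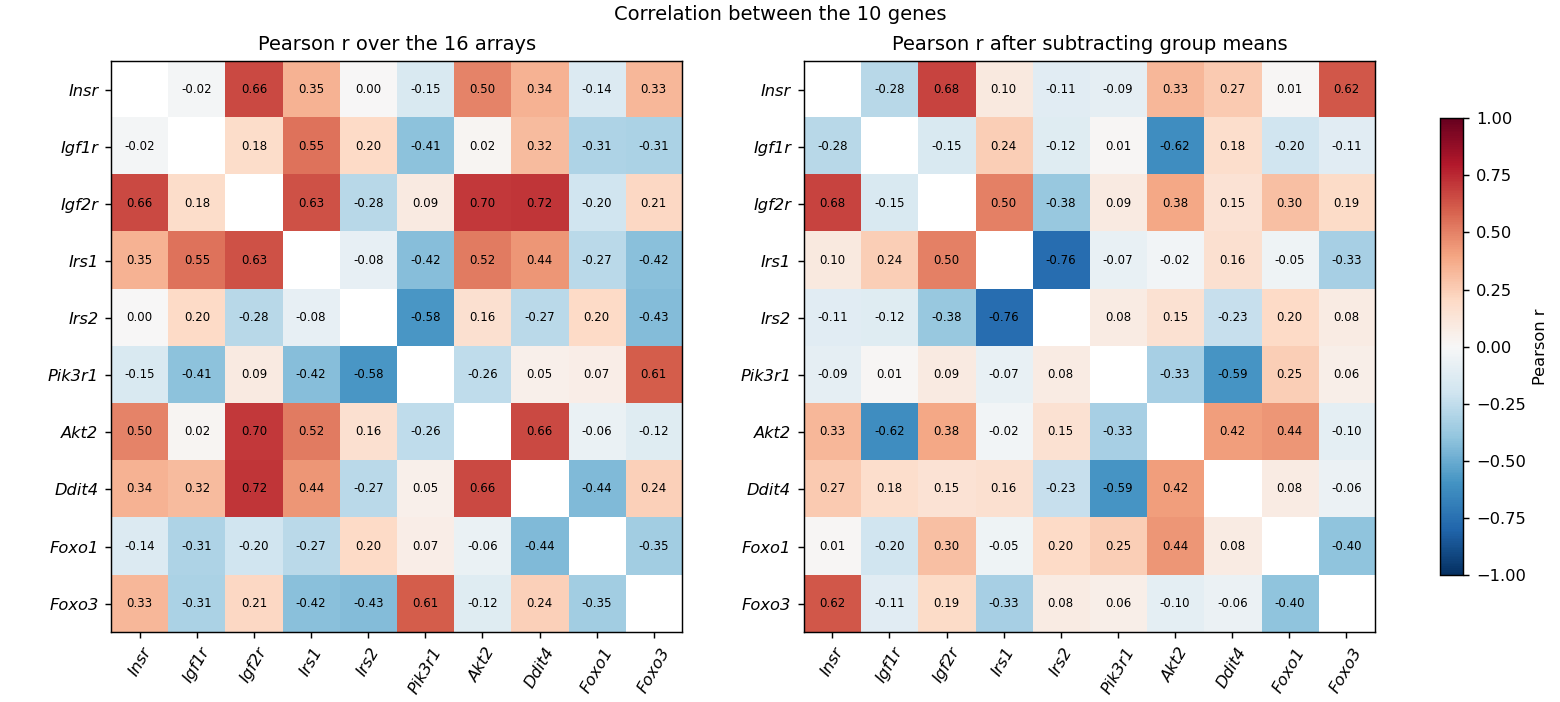
Pearson correlation of every pair of the 10 genes, over the 16 arrays on the left and after subtracting group means on the right, with the colour scale from -1 to 1. The block of Igf2r, Akt2 and Ddit4 on the left (0.66 to 0.72) is weaker on the right (0.15 to 0.42), and Irs1 with Irs2 is the lowest pair on the right. Within groups all 3 pairs of the block fall below 0 (-0.31 to -0.07, not drawn) without 2 arrays. These are the arrays farthest from the median of the pair's first gene in the order of the axes.

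The genes most like a member over the 16 arrays were taken by Pearson correlation. For Ddit4 they were Nckap1, of the actin regulator WAVE (0.93, and 0.67 within groups), Mthfd2, a mitochondrial folate enzyme (0.90 and 0.07), and Lias, which makes lipoic acid (0.89 and 0.49). These correlations include the differences between groups, so a group pattern like that of Ddit4 is part of the choice. The group means of Mthfd2 were -0.27 in WT SC, -0.09 in WT HFD, 0.16 in Clock SC and 0.89 in Clock HFD hearts. For Pik3r1 they were Pgm2l1 (0.89, 0.83 within groups), Decr1, an enzyme of unsaturated fat oxidation (0.89, 0.72), and Lrrc39 (0.88, 0.51). The diet difference of Decr1 was 0.32 ± 0.07 in WT and 0.31 ± 0.07 in Clock hearts. For Igf2r they were Svil, Hif1an and Slc47a1 (0.95, 0.94 and 0.93, and 0.89, 0.92 and 0.86 within groups). For Irs1 they were Crybg3, Rflnb and Ice1 (0.89, 0.89 and 0.88), and for Akt2 Maea, Cenpa and Taf13 (0.89, 0.89 and 0.86).

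**Figure D4:**
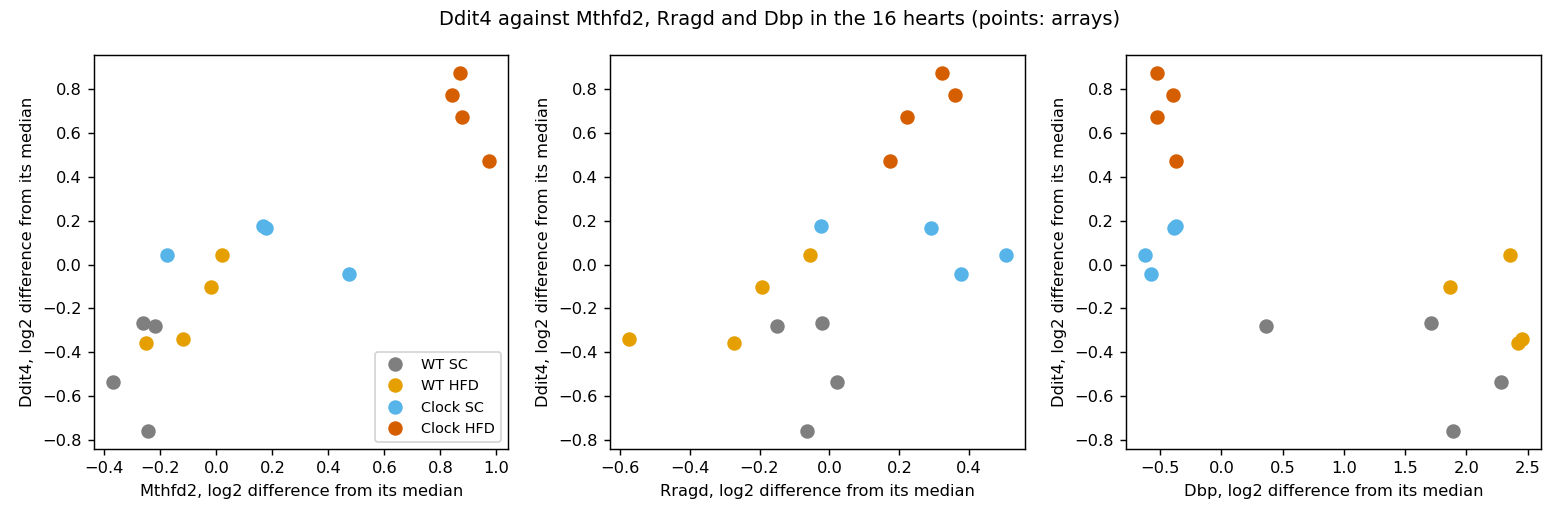
Ddit4 on the vertical axis against Mthfd2, Rragd and Dbp on the horizontal axes, all as log2 differences from each gene's own median, with 1 point per heart coloured by group. The 4 Clock HFD hearts are highest for both Ddit4 (0.47 to 0.88) and Mthfd2 (0.84 to 0.98), while Dbp separates the hearts by genotype and not by diet. The lowest WT heart in Dbp is WT SC replicate 4, at 0.37.

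The rest of the pathway was read from 7 lists of ligands, adaptors, PI3-kinase subunits, AKT targets, mTOR regulators, mTORC1 effectors and FOXO targets, 121 measured genes in all without the members. In the average genotype difference 8 rose and 3 fell (9.09%, median 0.03), against 3.88% of all genes. That total of 11 was 6 to 12 in the fits without 1 array, 6 without Clock HFD replicate 2, 7 without Clock HFD replicate 1 or Clock SC replicate 2, and 4 without WT SC replicates 2 and 4 together. Between genotypes on HFD alone 2 rose (1.65%), Rragd and Igfbp7, near the 1.9% of all genes, while on chow 0 passed, against 0.491%. Leaving out 1 array gave 1 to 4 on HFD, 1 without WT HFD replicate 4 and 4 without Clock SC replicate 4, and 0 to 2 on chow. Rragd on HFD passed under all 25 other settings and Igfbp7 under 18, with an adjusted p of up to 0.11. The diet comparison within WT hearts, that within Clock hearts and the interaction had 0 passing too, by limma after adjustment. Averaged over genotypes 2 passed with diet (1.65%), near the 1.54% of all genes. Pdk4, the kinase that shuts pyruvate dehydrogenase and a reported FOXO target, rose by 0.55 ± 0.12 (adjusted p = 0.0244), and Prkaa2, a catalytic subunit of AMPK, fell by 0.18 ± 0.04 (adjusted p = 0.0298). Pdk4 passed under 22 of 24 other settings and Prkaa2 under 15, and neither passed without Clock HFD replicate 3 or without Clock HFD replicate 4.

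Of 34 regulators and subunits of mTOR complexes, 5 rose in Clock hearts and none fell in the average. Over all genes 3.88% were called there, 2.44% higher and 1.44% lower. Rragd, a GTPase that brings mTORC1 to the lysosome, rose by 0.44 ± 0.08 (adjusted p = 0.00258), and on HFD alone by 0.54 ± 0.11 (adjusted p = 0.0122). Castor2, from the family of arginine sensors (0.26 ± 0.06, adjusted p = 0.016), Sesn3, a sestrin that restrains mTORC1 (0.24 ± 0.05, adjusted p = 0.0127), and Tti1, which helps assemble the complexes (0.21 ± 0.06, adjusted p = 0.0492), also rose. The fifth was Sesn2, another sestrin (0.20), named after its value was seen. Rragd passed under all 24 other settings, Castor2 and Sesn3 under 23 and Tti1 under 9. The list had 3 to 6 calls in the fits without 1 array, 3 without any 1 of the Clock HFD hearts, Clock SC replicate 3, WT HFD replicate 2, 3 or 4, or WT SC replicate 4, and without WT SC replicates 2 and 4 together 1 call, Rragd. As background, RagD is known to favour mTORC1, while the sestrins and DDIT4 restrain it. Among 11 mTORC1 effectors Lpin1 rose by 0.22 ± 0.05 (adjusted p = 0.016) and Eef2k, the kinase of an elongation factor, fell by 0.25 ± 0.06 (adjusted p = 0.0244).

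Of 11 ligands and binding proteins Igfbp7 rose by 0.26 ± 0.05 (adjusted p = 0.00489) and Igf2, the ligand cleared by Igf2r, by 0.24 ± 0.07 (adjusted p = 0.0493) in the average genotype difference. Over all genes 3.88% were called in that comparison. Igfbp7 passed under all 24 other settings and Igf2 under 6, with an adjusted p of up to 0.192. Inpp4b, a phosphatase of the PI3-kinase lipids, fell by 0.20 ± 0.05 (adjusted p = 0.0266), the only 1 of 16 PI3-kinase genes to pass. Of 21 FOXO factors and reported targets Txnip, which limits glucose uptake, fell by 0.28 ± 0.07 (adjusted p = 0.0281). Inpp4b and Txnip each passed under 18 of 24 other settings, with an adjusted p of up to 0.133 and up to 0.0607. Both were lost without Clock HFD replicate 2 or Clock SC replicate 2, Inpp4b also without Clock HFD replicate 1, WT HFD replicate 1 or WT SC replicate 2, and Txnip without Clock HFD replicate 4, Clock SC replicate 1 or WT SC replicate 1 or 3. None of 14 further adaptors and receptor regulators and none of 14 AKT kinases and targets passed in any comparison.

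Inducers of Ddit4 were read from 3 further lists. Of 12 ATF4 targets, genes of the amino acid and mitochondrial stress response, 5 rose in the average genotype difference: Mthfd2 by 0.71 ± 0.07 (adjusted p = 1.87e-05), Atf5 by 0.36 ± 0.05, Atf4 itself by 0.33 ± 0.06, Asns by 0.22 ± 0.05 and, named after its value was seen, Ddit3 by 0.22. The first 4 passed under all 24 other settings. Over all genes 3.88% were called in that comparison, 2.44% higher and 1.44% lower. On chow between genotypes Ddit3 rose by 0.42 ± 0.08 (adjusted p = 0.0293), a call kept under 19 of 25 other settings. Its group means were -0.26 in WT SC, 0.04 in WT HFD, 0.16 in Clock SC and 0.05 in Clock HFD hearts, unlike those of Ddit4. On HFD between genotypes Mthfd2, Atf5 (0.44 ± 0.08, adjusted p = 0.00465) and Atf4 (0.42 ± 0.08, adjusted p = 0.00938) rose, against 1.9% of all genes called. With diet Mthfd2 rose by 0.73 ± 0.10 in Clock hearts (adjusted p = 0.00666) and by 0.46 ± 0.07 averaged over genotypes (adjusted p = 0.00364). It was the only gene of the list called there, against 0.0902% and 1.54% of all genes. These calls were kept under 23 of 25 and 23 of 24 other settings. Between diets in WT hearts no gene of the list passed. The mean over the list lay at -0.08 to -0.05 in WT hearts on chow, -0.08 to -0.03 in WT hearts on HFD, -0.02 to 0.13 in Clock hearts on chow and 0.10 to 0.20 in Clock hearts on HFD. The group means were -0.07 in WT SC, -0.06 in WT HFD, 0.05 in Clock SC and 0.16 in Clock HFD hearts, and the WT groups overlapped.

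Of 13 glucocorticoid-induced genes 1 rose and 1 fell in the average genotype difference, against 3.88% of all genes called. Cdkn1a rose by 1.08 ± 0.16 (adjusted p = 0.000976) and Lcn2 fell by 0.56 ± 0.08 (adjusted p = 0.000894). On HFD between genotypes Cdkn1a rose by 1.76 ± 0.23 (adjusted p = 0.000722), a call kept under all 25 other settings. Lcn2 fell by 0.61 ± 0.12 on chow (adjusted p = 0.03) and by 0.52 ± 0.12 on HFD (adjusted p = 0.034), kept under 17 and 18 of 25 other settings. Zbtb16 rose on HFD averaged over genotypes by 0.75 ± 0.15 (adjusted p = 0.022), a call lost with eBayes set to trend and robust and without WT SC replicates 2 and 4 together (adjusted p up to 0.0899). Within WT hearts Cdkn1a fell by 1.30 ± 0.23 on HFD (adjusted p = 0.0245), a call kept under 15 of 25 other settings and lost without WT HFD replicate 2 or 4 or WT SC replicate 1, 2 or 4 (adjusted p up to 0.193 over the settings). The mean over the list was 0.10 in WT SC, -0.10 in WT HFD, -0.07 in Clock SC and 0.07 in Clock HFD hearts. Of 10 hypoxia-induced genes 1 passed in any comparison, Adm, a vasodilator peptide. It rose by 0.57 ± 0.11 in the average genotype difference (adjusted p = 0.00579), where 3.88% of all genes were called. The mean over that list was -0.03 in both WT groups, 0.05 in Clock SC and 0.02 in Clock HFD hearts. The part of any of these inducers in the differences of Ddit4 was not tested.

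Some endothelial and fibroblast markers were called between genotypes. On chow alone no marker of either list passed, against 0.491% of all genes. On HFD alone 3 endothelial and 0 fibroblast markers passed, against 1.9% of all genes. Of 10 endothelial markers 5 rose in the average genotype difference, against 3.88% of all genes called, with Cldn5 at 0.74 and Robo4 at 0.36, and the mean over the list lay at -0.26 to -0.18 in WT hearts on HFD against -0.03 to 0.15 in Clock hearts on HFD. On chow it lay at -0.09 to 0.05 in WT and 0.03 to 0.18 in Clock hearts. Of 10 fibroblast markers 4 rose in the average genotype difference, with Col1a1 at 0.30 and Postn at 0.28. The list's mean lay at -0.24 to -0.07 in WT and -0.02 to 0.10 in Clock hearts on chow. On HFD the fibroblast mean lay at -0.16 to 0.14 in WT and -0.08 to 0.26 in Clock hearts, so the genotypes overlapped there. Leaving out 1 array gave 3 to 8 endothelial calls, 3 without Clock SC replicate 2, WT HFD replicate 3 or 4 or WT SC replicate 1 or 2, and 8 without Clock HFD replicate 1. It gave 2 to 5 fibroblast calls, 2 without Clock HFD replicate 2 or 3 or Clock SC replicate 1. Without WT SC replicates 2 and 4 together 2 endothelial and 0 fibroblast markers were called. Of 10 cardiomyocyte markers 1 passed, Ryr2, at 0.17 between genotypes and 0.15 between diets, the latter under 11 of 24 other settings. No marker of smooth muscle, adipocytes, macrophages, lymphocytes or neutrophils passed in either average, and of 5 mesothelial markers Upk3b fell by 0.27 with diet. In whole myocardium fewer cells of a type and less RNA per cell cannot be told apart, and the part of these cell types in the differences of Ddit4, Igf2r, Irs1 and Akt2 was not tested. With diet, the endothelial genes Kdr and Emcn fell by 0.24 and fell by 0.21, and Postn rose by 0.34, and in WT hearts Cldn5 fell by 0.81. None of these 4 diet calls was kept without WT SC replicates 2 and 4 together (adjusted p 0.0605 to 0.193). Postn passed under 23 of 24 other settings, Kdr under 19 of 24, Emcn under 12 of 24 and Cldn5 under 7 of 25, and both Kdr and Emcn were lost without Clock HFD replicate 2, Clock SC replicate 3 or WT HFD replicate 1. The part of these in the differences of Pik3r1 was not tested.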

How the data were processed

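Total RNA of each heart was made into biotinylated cRNA from 500 ng and hybridised, per the labels' protocols. Log2 values of 34351 probe sets on 16 arrays, 1 per mouse, were deposited, already centred by the authors on each probe set's median, as the values show. Neither the base nor the direction of the logarithm is stated in the labels or file headers, and base 2 with higher expression positive was assumed. Upstream software and normalization: not given in the sources used here. How many arrays there are limits precision. Probe sets with 1 symbol (23521) were kept, those with several (1814) or none listed (9016) left out, giving 22180 genes.

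Genes were fitted with limma 3.58.1 in R 4.3.3 (lmFit, eBayes) (12 residual degrees of freedom, 4.16 prior ones) with a mean for each group, 7 comparisons and two-sided moderated tests, adjusted over all genes. The fit was tested on simulated data. All 10 members were named, with the 3 genes most correlated with each called member. Up to 4 passing genes per pathway list and comparison and up to 2 per marker list could be named, and not every call of these genes is given. Likeness genes, members and lists were chosen with earlier results of these data known. The other settings were every probe set singly, the widest-spread probe set, a robust eBayes with a trend, weights per array, repeated quantile normalization, array medians subtracted, compared groups only, a replicate block, each array left out, and, added after the data were seen, WT SC replicates 2 and 4 left out together. The main fit did not pair hearts by replicate number. Promoter sequences are from RefSeq, GRCm38.p6. Figures used Python 3.11.15 and matplotlib 3.10.9.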

Additional observations from a re-analysis of the deposited data

How the results depend on the processing

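Ddit4 between genotypes on HFD and in the average, and Ddit4 and Pik3r1 between diets in the average, passed under every setting run for them, and no member's called difference changed sign. The number of members called on chow between genotypes was 0, not 1, with every probe set singly, eBayes with trend and robust, repeated quantile normalization, compared groups only, the replicate block and WT SC replicates 2 and 4 left out together. Between genotypes on HFD it was 2 with every probe set singly and with the widest-spread probe set, the addition being Irs1. The single setting kept the probe set with the smallest p for each member, and for Irs1 both settings used the same probe set. The other Irs1 probe set differed by -0.01 there. In WT hearts between diets the number of members called was 0 with the compared groups only and without WT SC replicates 2 and 4. In Clock hearts between diets it was 1, Ddit4, with array weights and without those arrays, and without them the average genotype difference had 2 members called.

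Of all genes, those called between genotypes on chow numbered 59 with trend and robust, 38 with compared groups only and 49 without WT SC replicates 2 and 4. Between diets in WT hearts they numbered 40, 15 and 11 under these settings and 41 with the replicate block. Between diets in Clock hearts they numbered 8 with trend and robust, 53 with array weights, 43 after quantile normalization, 7 with compared groups only and 12 with the block. Without WT SC replicates 2 and 4 the averages had 507 (genotype) and 141 (diet). The cause of these changes was not tested; fewer arrays enter some of these fits.

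Leaving out 1 array gave 49 to 144 genes between genotypes on chow and 241 to 490 on HFD, 28 to 90 between diets in WT and 6 to 27 in Clock hearts, 0 to 0 in the interaction, and 648 to 1003 and 218 to 329 in the averages of genotype and diet. The members called ranged from 0 to 1 on chow, 1 to 1 on HFD, 1 to 1 in WT, 0 to 1 in Clock, 0 to 0 in the interaction, 1 to 4 in the genotype average and 2 to 3 in the diet average.

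Same-numbered hearts deviated from their group means with a mean correlation of -0.0047 (from -0.149 to 0.163). For other numbers it was 0.0017 (from -0.203 to 0.209), and 1 of 16 arrays correlated best with its own number. No sign of pairing by number was seen, but so few arrays cannot settle whether hearts were paired. With the replicate block, Ddit4 on chow (adjusted p = 0.0664) and Igf2r in the average (0.0526) were no longer called. A filter on dim probes was not run, because centred values hold no levels.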

Other observations

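WT SC replicates 2 and 4, the arrays with the widest spread over probe sets, were each the lowest of 16 hearts in 3 members: replicate 2 in Igf2r, Akt2 and Ddit4, and replicate 4 in Insr, Pik3r1 and Foxo3.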
